A study of Solanum virginianum with 36 samples.

Results

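The 150 genes described here had RNA in both eggplant lines by their mean level and stood far higher in the thrips-resistant than in the thrips-susceptible line at each of 6 sampling times. They were chosen from the values themselves. Estimated counts of rows with a gene ID were scaled to library size as CPM, with TMM factors that correct for library composition. Of 85443 IDs, 14952 averaged 2 CPM or more over the 18 resistant and again over the 18 susceptible libraries and were kept. For each time the mean log2(CPM + 1) of the susceptible libraries was taken from that of the resistant libraries. The smallest of the 6 differences was the score, and the 150 genes with the highest score became the members. All 150 passed the filter on low counts of the test, which left 23719 genes. The difference between lines is therefore the rule and not a finding, and it is described here without a test.

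Leaf RNA of both lines was sequenced after 0, 4, 8, 12, 24 and 48 h of feeding by thrips. Each line gave 3 libraries at each time, 36 in all. The western flower thrips of the series title is an insect that pierces leaf cells and sucks out their contents. Every library of either line, 0 h included, carries thrips feeding as its treatment label, and plants grew in a greenhouse with 16 h of light and were collected 1 week after transplanting. The labels give the organism as Solanum virginianum, a wild relative, while the series title speaks of eggplant. Each line is known only as resistant or susceptible, with no cultivar name, and the labels call the 3 libraries biological replicates without saying how many plants each holds. Later libraries of plants without feeding are not among the groups, so effects of feeding, of daytime and of the time passed cannot be told apart. At 24 and 48 h, whole days after 0 h, daytime would match 0 h if all times count from the same hour of day. In bulk leaf RNA, fewer cells of a type and less RNA per cell cannot be told apart. A lower RNA level in a line and a poorer match of that line's reads to the reference gene models cannot be told apart either.

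Plants resist chewing and sucking insects with defences that are present before attack and with others that attack switches on. Genes of the first kind differ between lines already in undamaged leaves, while genes of the second kind change after feeding begins, often through the hormones jasmonate and salicylate. The series title names quinic acid, a small organic acid linked to the shikimate pathway and a building block of chlorogenic acid, a phenolic compound that is abundant in eggplant. No file pairs an ID with a gene name, so every ID is given as deposited and no role is stated for any member. The leaf label was not checked against marker genes for the same reason.

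Totals over rows with a gene ID were 30629392 to 41243395 estimated counts per resistant library and 34360637 to 42391553 per susceptible library. A check for RNA of the other line used IDs that were nearly absent from the rest of a line and well expressed in the other. In 35 libraries the median of these IDs was 0% of the other line's level. Resistant 48 h replicate 3 stood apart, with a count for 109 of 156 such IDs and a median level of 1.25% of that in susceptible libraries. Without that library 147 of the 150 members were chosen again.

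Members stood at a mean of 8.15 to 1782 CPM in the resistant line, with a median of 39.4 CPM. In the susceptible line they stood at 2.001 to 479 CPM, with a median of 6.71 CPM. All 14952 genes at the minimum level had medians of 25.1 and 24.9 CPM. The ratio of the resistant to the susceptible mean ran from 2.64 (Sme2.5_24183.1_g00002) to 42.5 (Sme2.5_02274.1_g00006, at 91.0 and 2.14 CPM), with a median of 4.76. The median line difference of the members, in log2(CPM + 1), was 2.07, 2.17, 2.10, 2.31, 2.31 and 2.13 in the order of the 6 times. The rule required a difference at each of the 6 times, 0 h included, so its presence at any of them is not a finding. Its median moved little over 48 h, but single members moved more. The range of a member's 6 differences had a median of 1.06 (log2), against 0.843 over all genes at the minimum level. Over all genes at the minimum level, the mean difference over the 6 times had a median of 0.036 on the same scale.

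**Figure D1:**
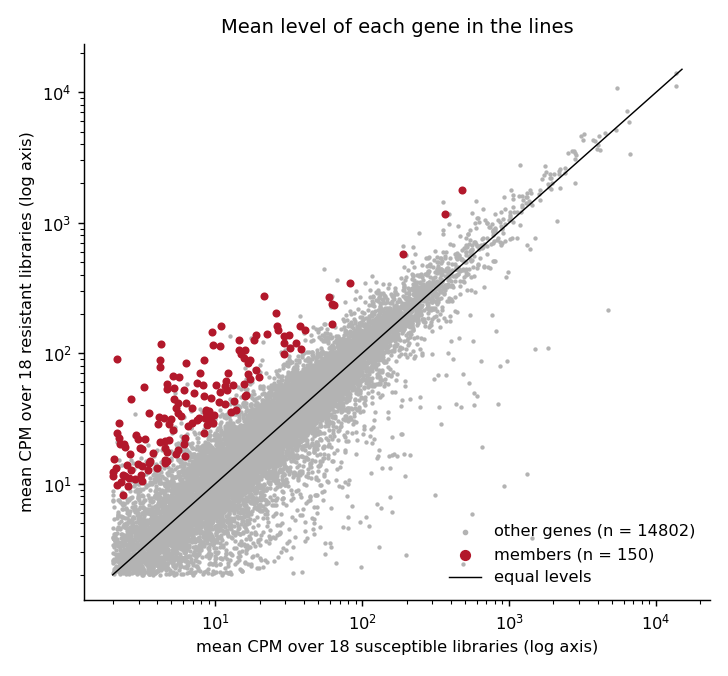
Mean CPM of each gene over the 18 resistant libraries (vertical, log axis) against the mean over the 18 susceptible libraries (horizontal, log axis). Red points are the 150 members, grey points the other genes at the minimum level, and the line marks equal levels. The members lie above the line over their own range of levels, from 2.001 to 479 CPM in the susceptible line, because the rule chose them so. All genes at the minimum level reach 13700 CPM in that line.

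Summed over the 150 members, each resistant library held more than any susceptible library. The resistant libraries held 8295, 12234 and 16851 CPM (lowest, median and highest) and the susceptible libraries 1837, 2531 and 3955 CPM. In order of time the resistant means were 11635 ± 492, 10691 ± 597, 10161 ± 1663, 12393 ± 122, 14043 ± 1543 and 15505 ± 1378 CPM (SD, n = 3 each). The susceptible means were 2660 ± 265, 2508 ± 47.4, 2118 ± 322, 2410 ± 201, 2956 ± 430 and 3614 ± 308 CPM (SD, n = 3 each). In both lines the sum was lowest at 8 h and highest at 48 h. The low at 8 h was that of Sme2.5_12354.1_g00002, with means of 2467 CPM at 0 h, 333 CPM at 8 h and 3288 CPM at 48 h in the resistant line and 634, 65.7 and 1043 CPM in the susceptible line. Without it the sum was lowest at 0 h in both lines, at 9168 ± 259 CPM against 9828 ± 1637 CPM at 8 h in the resistant and 2026 ± 221 against 2053 ± 317 CPM in the susceptible line (SD, n = 3 each). It stayed highest at 48 h, at 12217 ± 1138 and 2571 ± 427 CPM. At 8 h the resistant mean also holds replicate 3, the lowest library with 8295 CPM.

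For 110 members the FPKM table gave a value per transcript length. These members had a median of 18.9 FPKM in the resistant and 3.18 FPKM in the susceptible line, against 11.4 and 10.8 FPKM over 10970 genes at the minimum level. CPM divided by FPKM, which grows with transcript length, had a median of 2.20 for members and 2.20 for those 10970 genes. The members thus had a middle relative length, and 40 members had no FPKM.

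The scores had no gap at the threshold. Sme2.5_03504.1_g00005 and Sme2.5_02311.1_g00002, the members with the lowest scores, scored 1.199 and 1.198. Sme2.5_14057.1_g00001 and Sme2.5_00655.1_g00001, just outside, scored 1.196 and 1.191. Sme2.5_02311.1_g00002 stood at 24.5, 37.2 and 45.9 CPM (lowest, median and highest of 18) in the resistant line and at 9.30, 14.5 and 18.5 CPM in the susceptible line. The excluded Sme2.5_00655.1_g00001 stood at 37.5, 47.0 and 60.3 CPM and at 11.7, 17.05 and 27.8 CPM. In both genes every resistant library was above every susceptible library.

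The lines did not overlap for 93 of the 150 members, that is, each of the 18 resistant libraries was above each of the 18 susceptible ones. Of all genes at the minimum level, 2.53% had no overlap in that direction, and the rule used the same levels. The highest score, 4.22, belonged to Sme2.5_10090.1_g00001. Its resistant libraries stood at 82.7, 107 and 215 CPM (lowest, median and highest) and its susceptible libraries at 1.09, 4.32 and 7.95 CPM, so the lines lay far apart. The ratio of its means was 27.5. It passed at no later time against 0 h in either line, where the lowest edgeR adjusted p was 0.21. Sme2.5_00007.1_g00004 was among the steadiest members, at 476, 582 and 641 CPM in the resistant and 155, 184 and 224 CPM in the susceptible line. Its ratio of 3.05 is small, yet the lines did not overlap. Among the 110 members with an FPKM, Sme2.5_08608.1_g00002 (472 FPKM in the resistant and 151.3 FPKM in the susceptible line) and Sme2.5_02877.1_g00003 (202 and 44.9 FPKM) were the highest per length. Sme2.5_12354.1_g00002, the member with the highest resistant mean in CPM, had no FPKM.

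Sme2.5_02877.1_g00003 stood at 246, 347 and 507 CPM (lowest, median and highest) in the resistant line and at 61.2, 81.6 and 101 CPM in the susceptible line, with no overlap. Its resistant libraries were at 246, 254 and 252 CPM at 0 h and at 384, 507 and 348 CPM at 48 h, all above 0 h. That rise was 0.74 ± 0.14 (log2, SE, n = 3 against 3; edgeR adjusted p = 6.1e-04), and it also rose at 4, 8 and 12 h. The susceptible libraries, at 69.3, 61.2 and 94.6 CPM at 0 h and 69.4, 75.5 and 76.6 CPM at 48 h, passed at no time. The difference between these courses did not pass either (edgeR adjusted p = 0.12).

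The label of expression in both lines held for most members but not for all. At least 1 CPM was found in every susceptible library for 105 members (70%), against 94.0% of all genes at the minimum level. In every resistant library it was found for 147 members (98%), against 92.3%. A smaller set of 17 members (11.3%, against 0.522% of all) were under 1 CPM in at least 9 of the 18 susceptible libraries and reached their mean of 2 CPM through the others. The rule favours such genes. Low libraries pull down the susceptible mean of log2(CPM + 1), while a few high ones can lift the mean CPM past the minimum. The larger share is thus in part the rule and not a finding. Among these 17 were Sme2.5_02064.1_g00003 and Sme2.5_03245.1_g00008. For those 17 the data go against the label in 9 to 17 of the 18 susceptible libraries, while 1 to 8 libraries held 5 CPM or more.

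Sme2.5_02064.1_g00003, which ranked second, shows this pattern. Its resistant libraries stood at 62.4, 91.1 and 113 CPM (lowest, median and highest). Its susceptible libraries stood at 71.5 CPM in 8 h replicate 2 and 73.2 CPM in 12 h replicate 1 and at no more than 0.868 CPM in the other 16. The 2 high susceptible libraries lay within the resistant range, and no susceptible library lay between.

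For 4 members more than 50% of the summed susceptible CPM came from 1 library. They were picked out after their values were seen. Sme2.5_01873.1_g00005 had 75.6 CPM in susceptible 0 h replicate 3, which was 99.5% of its sum, and at most 0.112 CPM in each other susceptible library. Its resistant libraries stood at 60.9 to 130 CPM except 4 h replicate 1 at 0.0806 CPM and 4 h replicate 3 without a count. It was called as falling in the susceptible line at all 5 later times (edgeR adjusted p 1.0e-02 to 2.1e-02), although 0 h replicates 1 and 2 were at 0.0264 CPM and without a count. Sme2.5_03245.1_g00008 had 178 CPM in susceptible 4 h replicate 1, which was 68.3% of its sum. Sme2.5_24200.1_g00001 had 45.8 CPM in susceptible 12 h replicate 2, which was 54.5%. Sme2.5_05389.1_g00003 had 58.4 CPM in susceptible 48 h replicate 2, which was 51.3%. Over the other 17 susceptible libraries Sme2.5_01873.1_g00005 averaged 0.0240 CPM, under the minimum of 2 CPM, while the means of the other 3 members were 4.88, 2.25 and 3.26 CPM in the order given.

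Some members were on and off within a group of 3, meaning no more than 3 counts in 1 library and 5 CPM or more in another. There were 12 of them, all in the susceptible line and 3 also in the resistant line. The share was 8% in the susceptible line, against 1.36% of all genes at the minimum level, and 2% in the resistant line, against 1.33%. The susceptible share is not read as a finding, because the rule favours genes that are off in some susceptible libraries. The 3 members that were on and off in both lines were Sme2.5_05389.1_g00003, Sme2.5_01873.1_g00005 and Sme2.5_00057.1_g00034. Sme2.5_05389.1_g00003 had 0.0280 to 0.0338 CPM in 4 resistant libraries, 1 each at 0, 4, 24 and 48 h, and 71.6 to 162 CPM in the other 14. Sme2.5_00057.1_g00034 ranged from 47.5 to 712 CPM in 17 resistant libraries and had no count in 12 h replicate 2. Sme2.5_00742.1_g00004 had no count in 11 susceptible libraries and 35.6 to 122 CPM in the other 7, which belonged to 4 of the 6 times. The libraries that were on differed from member to member. Set against FPKM, the smallest deposited value above 0 matched a median of 0.348 counts, so levels of 0.0280 to 0.0338 CPM lie at the bottom of the table.

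**Figure D2:**
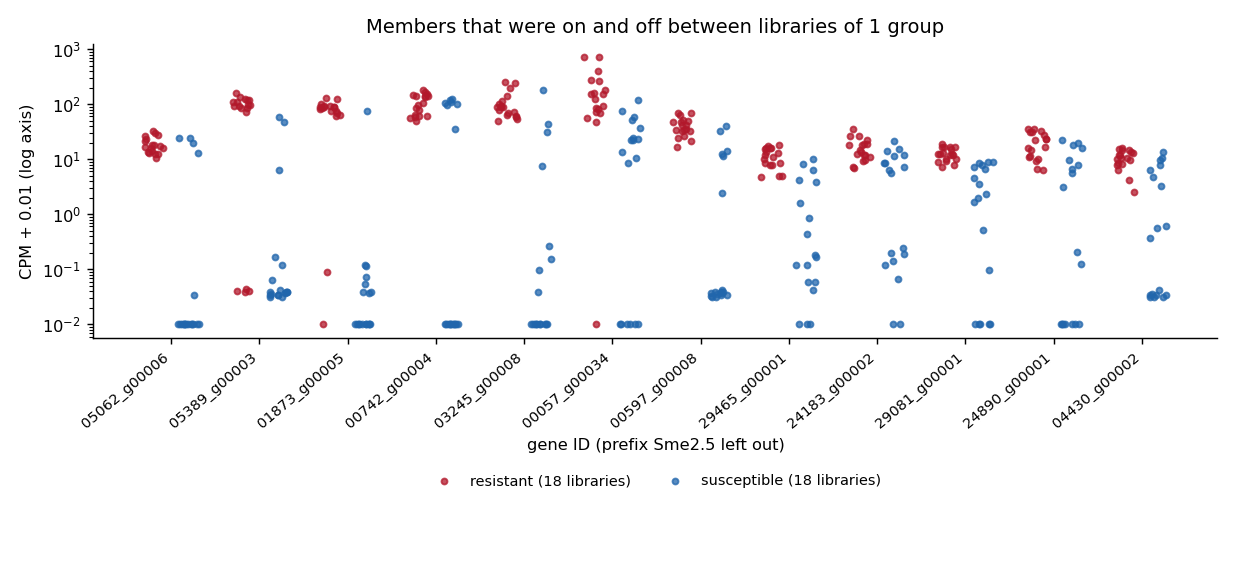
CPM + 0.01 (log axis) of the 12 members with on and off libraries in the same group of 3. Each point is 1 library, red for the 18 resistant and blue for the 18 susceptible ones, and a library without a count lies at 0.01. For some members the blue points split into a high and a low cloud, as for Sme2.5_00742.1_g00004 with 11 susceptible libraries at 0 and 7 at 35.6 to 122 CPM. Others were more evenly spread. The susceptible libraries of Sme2.5_29081.1_g00001 ran from 0 to 8.99 CPM, with a largest gap of 0.838 on the log2(CPM + 1) scale.

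Sme2.5_08608.1_g00002, the member with the highest FPKM, had levels in steps without being absent anywhere. Its 18 resistant libraries stood at 251, 1176 and 1758 CPM (lowest, median and highest), with 8 h replicate 3 the lowest and every other at 1012 CPM or more. Of its susceptible libraries, 6 stood at 34.0 to 44.4 CPM and 12 at 403 to 936 CPM, with none between. Susceptible groups at 0, 8, 12, 24 and 48 h each held libraries of both kinds. No later time passed against 0 h in either line, where the lowest edgeR adjusted p was 0.72. Over the 18 libraries of a line, a gap of more than 2 on the log2(CPM + 1) scale occurred for 13 members in the susceptible line (8.67%, against 1.44% of all genes at the minimum level) and for 5 in the resistant line (3.33%, against 1.46%). The rule bears on this susceptible share as well.

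The spread within groups was wider for members in the susceptible line. The SD between libraries of a group, in log2(CPM + 1), had a median of 0.330 over members and 0.230 over all genes at the minimum level. In the resistant line these medians were 0.292 and 0.268. Lower levels carry more counting error, and the members were lower in the susceptible line. The parts of level and of the rule in this spread were not tested.

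**Figure D3:**
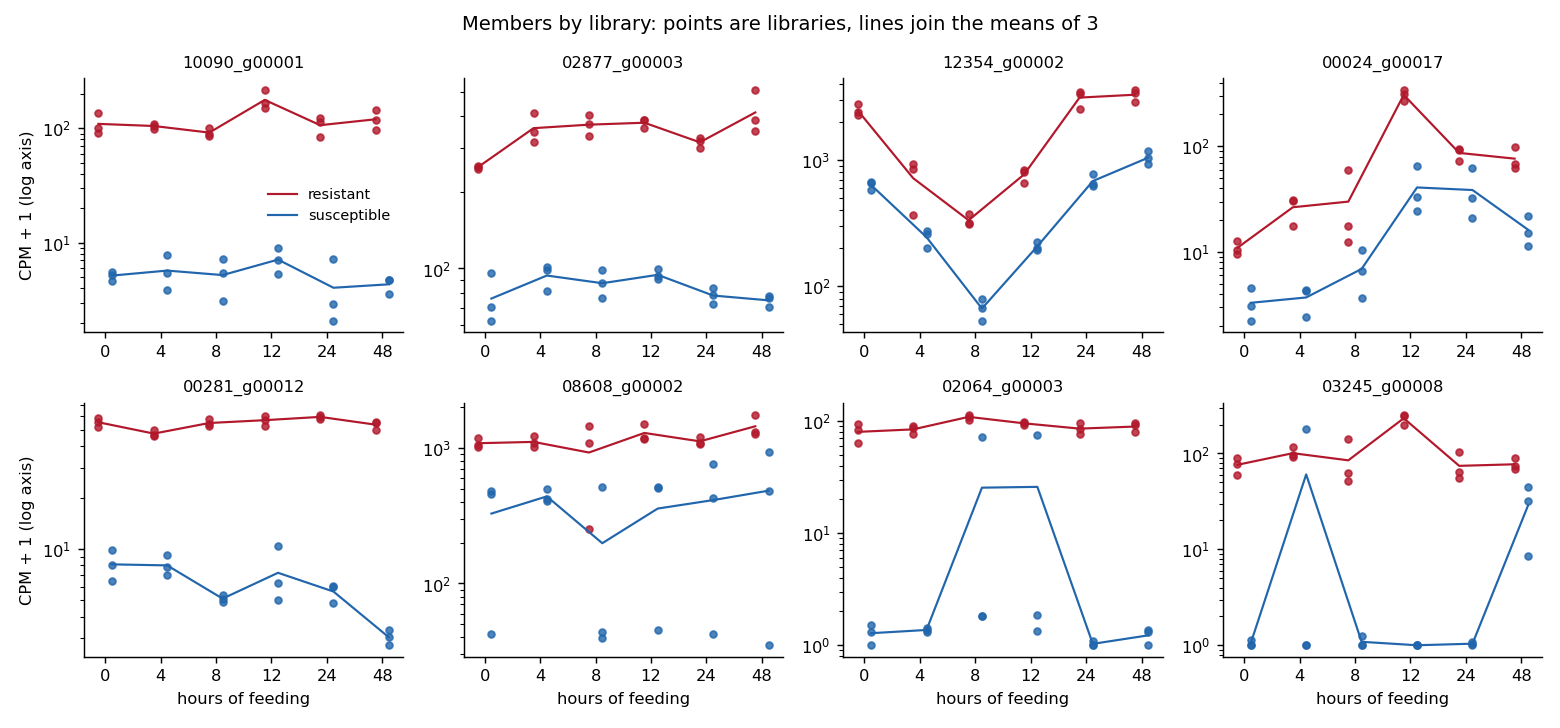
CPM + 1 (log axes, 1 scale per panel) of 8 members by hours of feeding. Points are single libraries, lines join the means of 3, red is the resistant and blue the susceptible line, and panel titles leave out the shared start of the IDs. Panels show a steady difference (Sme2.5_10090.1_g00001), a shared fall to 8 h (Sme2.5_12354.1_g00002), a shared rise at 12 h (Sme2.5_00024.1_g00017), and susceptible levels in steps (Sme2.5_08608.1_g00002, Sme2.5_02064.1_g00003 and Sme2.5_03245.1_g00008).

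Changes over time within each line were then tested against 0 h of the same line with edgeR's quasi-likelihood test, fitted on all 36 libraries and adjusted over all 23719 genes with a threshold of 0.05. The rule bears on these counts as well, because it asks for a resistant level well above the susceptible one at every time. A resistant fall that the susceptible line did not share would have lowered the score.

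In the resistant line 53 of the 150 members (35.3%) changed at 1 or more later times, while 54.1% of all genes at the minimum level did. Of the 53, 36 only rose, 15 only fell and 2 did both at different times, where 24.6%, 26.3% and 3.18% of all genes at the minimum level did so. The share that only rose was thus at the background and the share that only fell was lower. At 4 h 10 members rose and 6 fell (9.09% and 9.82% of all genes at the minimum level rose and fell), and at 8 h 8 rose and 8 fell (7.12% and 10.4%). At 12 h 21 rose and 8 fell (13.7% and 14.5%). At 24 h 9 rose and 2 fell (6.21% and 6.21%), and at 48 h 23 rose and 4 fell (15.2% and 16.5%). The counts of rising members thus stood near the background at 12, 24 and 48 h, and falling members were fewer at each time. The median of all members' changes was 0.09, 0.08, 0.27, 0.13 and 0.20 (log2) from 4 to 48 h, while those of all genes at the minimum level lay between -0.01 and 0.01.

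Single libraries moved the resistant counts by more than 1.5 times. The 16 members at 4 h became 8 without 0 h replicate 1, 8 without 0 h replicate 2, 10 without 4 h replicate 2 and 7 without 4 h replicate 3. The 16 at 8 h became 10 without 0 h replicate 1, 7 without 0 h replicate 2, 7 without 8 h replicate 1 and 10 without 8 h replicate 2. The 29 at 12 h became 16 without 0 h replicate 1 and 17 without 12 h replicate 2, and the 11 at 24 h became 6 or 7 without 0 h replicate 1 or 3 and 5 or 6 without 24 h replicate 2 or 3. At 48 h the count was 27, and 22 without replicate 3 of that time, the library with counts for IDs of the susceptible line.

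Named changes are the largest past the threshold in which the CPM of the 3 later libraries did not overlap that of the 3 at 0 h and the higher group reached 5 CPM. Sme2.5_00024.1_g00017 had the largest rise in the resistant line. It stood at 9.49, 8.54 and 11.8 CPM at 0 h and at 310.5, 266 and 340.3 CPM at 12 h. All 12 h libraries lay far above all 0 h libraries, and the change was 4.96 ± 0.61 (log2, SE, n = 3 against 3; edgeR adjusted p = 2.3e-06). It was still up at 24 h, with 71.8 to 93.5 CPM, and at 48 h, with 61.5 to 97.2 CPM. The susceptible line did the same at a lower level, from 2.11, 1.24 and 3.55 CPM at 0 h to 23.5, 63.7 and 32.1 CPM at 12 h (4.09 ± 0.60 log2, SE; edgeR adjusted p = 2.7e-05). Its time course did not pass the test of a difference between lines (edgeR adjusted p = 0.27).

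The second largest rise was that of Sme2.5_07504.1_g00002. It stood at 8.47, 7.18 and 63.1 CPM at 0 h and 150.6, 270.4 and 286 CPM at 12 h, so 0 h replicate 3 lay nearer to the 12 h libraries than the others. The rise of 3.18 ± 1.08 (log2, SE, n = 3 against 3; edgeR adjusted p = 3.8e-02) did not pass without 0 h replicate 1, 0 h replicate 2, 12 h replicate 2 or 12 h replicate 3, nor in a fit of only those 6 libraries. The adjusted p in those fits was 5.2e-02 to 0.16. The size of the rise was 2.70 to 4.92 with 1 library left out and 3.15 to 3.35 under the other settings (log2). Its susceptible libraries stayed between 0.367 and 20.7 CPM and passed at no time.

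The largest fall in the resistant line was that of Sme2.5_12354.1_g00002, the member with the highest resistant mean in CPM. It stood at 2382, 2255 and 2763 CPM at 0 h and fell to 375, 314 and 310 CPM at 8 h. By 24 h it was back at 2552, 3458 and 3347 CPM, which did not pass against 0 h (edgeR adjusted p = 0.42). At 48 h it stood at 2881, 3397 and 3585 CPM. The fall at 8 h was -2.89 ± 0.24 (log2, SE, n = 3 against 3; edgeR adjusted p = 3.3e-09), and at 4 and 12 h it was -1.77 and -1.67. The susceptible line went the same way, from 652, 583 and 666 CPM at 0 h to 66.7, 52.5 and 77.9 CPM at 8 h (-3.28 ± 0.24 log2, SE; edgeR adjusted p = 2.9e-10). At 24 h its susceptible libraries held 779, 644 and 618 CPM, which did not pass against 0 h (edgeR adjusted p = 0.89). At 48 h its susceptible libraries held 1034, 1170 and 925 CPM, which was above 0 h (0.73 ± 0.22 log2, SE; edgeR adjusted p = 3.9e-02). The resistant level stayed above the susceptible one through this course, and the lines' courses did not pass the test of a difference (edgeR adjusted p = 0.31).

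Sme2.5_04530.1_g00004 fell in both lines. In the resistant line it stood at 13.3, 71.7 and 34.8 CPM at 0 h and 4.12, 6.64 and 5.84 CPM at 8 h (-2.85 ± 0.78 log2, SE, the second largest fall; edgeR adjusted p = 1.5e-02). That call was lost without 0 h replicate 2 (adjusted p = 0.11) and without 8 h replicate 1 (7.4e-02). Its susceptible libraries stood at 7.52, 16.4 and 5.196 CPM at 0 h and 0.822, 0.371 and 0.469 CPM at 4 h (-4.13 ± 0.85 log2, SE; edgeR adjusted p = 2.5e-03). It stayed below 1 CPM in 13 susceptible libraries.

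Of the 150 members, 75 (50%) changed in the susceptible line at 1 or more later times, against 37.1% of all genes at the minimum level. Of the 75, 41 only rose, 31 only fell and 3 did both, where 17%, 17.9% and 2.19% of all genes at the minimum level did so. At 4 h 12 rose and 8 fell (5.12% and 6.02% of all genes at the minimum level rose and fell). At 8 h 20 rose and 20 fell (8.82% and 10.4%), and at 12 h again 20 rose and 20 fell (6.56% and 9.24%). At 24 h 19 rose and 9 fell (4.9% and 5.14%), and at 48 h 19 rose and 6 fell (5.91% and 7.3%). The share of rising members was above the background at each time. Falling members exceeded it at 8 and 12 h, were near it at 4 and 24 h and were fewer at 48 h. Of the 75, 7 were among the 12 members with on and off libraries in a group, and of the other 138 members 68 (49.3%) changed.

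The susceptible counts depended on the fit more than the resistant ones. With only the 6 libraries of a comparison in the fit they were 6, 9, 17, 4 and 13 from 4 to 48 h, where the fit of all libraries gave 20, 40, 40, 28 and 25. The share of all genes in those smaller fits is not given here. The excess over the background is therefore shown for the fit of all libraries alone. The 20 at 4 h became 13 without 0 h replicate 3 and 12 without 4 h replicate 1, and the 40 at 12 h became 24 without 12 h replicate 1. The 28 at 24 h became 18 without 0 h replicate 2, 13 without 24 h replicate 2 and 18 without 24 h replicate 3, and the 25 at 48 h became 16 without 48 h replicate 3.

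**Figure D4:**
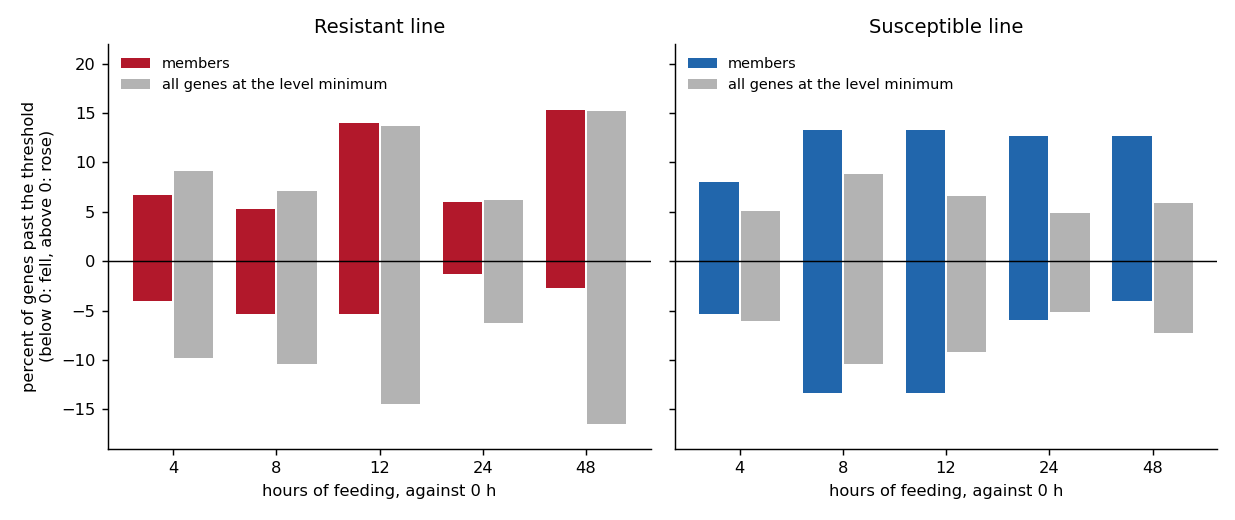
Percent of genes past the edgeR threshold against 0 h at each later time, rising above and falling below the zero line, in the resistant line (left) and the susceptible line (right). Coloured bars are the 150 members and grey bars all 14951 tested genes at the minimum level. In the susceptible line the coloured bars exceed the grey ones in both directions at 8 h, with 20 members rising and 20 falling, and in the resistant line fewer members than background genes fell at each time.

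Both named rises in the susceptible line belonged to members near 0 at 0 h, so the fitted sizes depend on the prior count and are no bounds. Sme2.5_03245.1_g00008 had no count in 0 h replicates 1 and 2 and 0.147 CPM in replicate 3, and stood at 31.0, 7.46 and 44.0 CPM at 48 h. All 48 h libraries were above all 0 h libraries (8.97 ± 2.06 log2 as fitted, SE; edgeR adjusted p = 5.9e-03). At 4 h it stood at 178 CPM in replicate 1 and had no count in replicates 2 and 3, and it was at most 0.259 CPM at 8, 12 and 24 h. In the resistant line it stood at 50.3, 88.7 and 253 CPM (lowest, median and highest), with its highest libraries at 12 h.

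Sme2.5_00597.1_g00008 had a deposited value of 1 in each susceptible 0 h library and stood at 0.0314, 32.3 and 12.2 CPM at 48 h. The fitted rise was 8.99 ± 2.87 (log2, SE; edgeR adjusted p = 4.6e-02), and 48 h replicate 1 also had a deposited value of 1. That tie with 0 h was parted only by library size, so the groups did not overlap in CPM but did in deposited values. It did not pass with any 1 of the 0 h libraries left out, without 48 h replicate 2 or 3, or with no filter on low counts (adjusted p 5.9e-02 to 0.15). Its resistant libraries were at 47.9 to 69.1 CPM at 0 h and 16.9 to 26.9 CPM at 48 h, and susceptible 48 h replicate 2 lay above all of the latter.

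The largest fall without overlap in the susceptible line was that of Sme2.5_04530.1_g00004, given above for both lines. Next came Sme2.5_00075.1_g00010, which went from 4.32, 28.3 and 3.50 CPM at 0 h to 0.411, 0.325 and 1.63 CPM at 4 h. The fall was -3.94 ± 0.93 (log2, SE; edgeR adjusted p = 8.0e-03) and did not pass without 0 h replicate 2, the high library, or without 4 h replicate 1 or 2, nor with only those 6 libraries (adjusted p 5.5e-02 to 0.12). Its resistant libraries went from 31.8, 42.8 and 28.4 CPM to 9.53, 4.81 and 5.21 CPM at 4 h, which did not pass (edgeR adjusted p = 6.3e-02).

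Some members changed the same way at the same time in both lines, which were compared with their own 0 h libraries and share no library. At 1 or more times 16 members (10.7%) rose in both lines and 7 (4.67%) fell in both. Of all genes at the minimum level, 8.98% rose and 11.1% fell in both. At 12 h 8 members rose in both lines, which were 38.1% of those that rose in the resistant and 40% of those that rose in the susceptible line. No member passed in opposite directions in the lines at the same time. The matching shares of all genes at the minimum level are not given for the 12 h overlap or for opposite directions. Neither is therefore read as a trait of the members. Of the 150 members, 23 changed in the resistant line alone, 45 in the susceptible line alone, 30 in both and 52 in neither. Of all genes at the minimum level 27%, 9.94%, 27.1% and 35.9% did so, and these counts do not test a difference between lines.

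The members that moved together differed in when they moved. The following were picked out after their values were seen. Sme2.5_14352.1_g00002 rose in both lines at 4, 8 and 12 h, in the resistant line from 22.9, 27.7 and 42.9 CPM at 0 h to 142, 91.9 and 125 CPM at 12 h (1.96 ± 0.49 log2, SE; edgeR adjusted p = 5.4e-03). Its susceptible libraries rose from 0.475, 1.57 and 0.637 CPM to 15.8, 10.7 and 21.3 CPM (4.14 ± 0.56 log2, SE; edgeR adjusted p = 1.1e-05), and its time course differed between lines (edgeR adjusted p = 4.1e-02). Sme2.5_12937.1_g00002 rose in both lines at 8, 12 and 24 h, and at 8 h it was at 40.6, 45.0 and 39.7 CPM in the resistant line, up from 17.9, 19.3 and 16.6 CPM (1.22 ± 0.17 log2, SE; edgeR adjusted p = 1.4e-05). The susceptible libraries of this ID rose from 6.64, 4.87 and 6.2 CPM to 9.71, 15.8 and 14.1 CPM (1.15 ± 0.17 log2, SE; edgeR adjusted p = 3.6e-05).

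Some moved late. Sme2.5_00798.1_g00005 rose in both lines at 24 and 48 h, at 48 h to 285, 363 and 217 CPM in the resistant line from 82.4, 67.2 and 81.6 CPM at 0 h (1.92 ± 0.35 log2, SE; edgeR adjusted p = 2.8e-04). Its susceptible libraries rose to 67.3, 73.0 and 97.3 CPM from 12.7, 16.9 and 35.0 CPM (1.89 ± 0.35 log2, SE; edgeR adjusted p = 7.8e-04). An early pattern was that of Sme2.5_01521.1_g00008, which fell in both lines at 4 and 8 h, in the resistant line from 95.6, 110 and 104 CPM to 70.4, 51.6 and 66.8 CPM at 8 h (-0.71 ± 0.21 log2, SE; edgeR adjusted p = 2.3e-02). Its susceptible libraries fell from 35.4, 35.4 and 45.9 CPM to 21.4, 17.3 and 22.3 CPM (-0.95 ± 0.21 log2, SE; edgeR adjusted p = 2.7e-03).

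By group mean, the highest time in the resistant line was 12 h for 39 members (26%) and 48 h for 39 (26%), against 17.4% and 20.5% of all genes at the minimum level. That time was 0 h for 16 members (10.7%, against 19.4%). As many as 43 members (28.7%, against 16.8%) were highest at 48 h in the susceptible line. The lowest time in the resistant line was 0 h for 41 members (27.3%, against 17.4%). These times are descriptions of group means and carry no test.

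Differences between lines in the change from 0 h were tested as interactions. An F-test over the 5 later times was passed by 32 of the 150 members (21.3%), near the 19.9% of all genes at the minimum level. Of the 32, 13 had changed in the susceptible line alone, 3 in the resistant line alone, 13 in both and 3 in neither, and 2 were on and off within a group. The count was 20 without resistant 12 h replicate 3 and 19 without susceptible 12 h replicate 1. At single times the interaction passed for 1, 2, 4, 0 and 5 members from 4 to 48 h, against 0.375%, 1.88%, 2.29%, 0.301% and 1.01% of all genes at the minimum level. At 24 h, where edgeR called 0 members, 24 had an unadjusted p under 0.05 (11.2% of all genes at the minimum level did) and DESeq2 called 5 (1.72% of all). The range of a member's 6 line differences had a median of 1.06 (log2), against 0.843 over all genes at the minimum level, and the rule used these differences.

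The interaction counts at single times also turned on single libraries. The 1 member at 4 h became 7 without resistant 4 h replicate 1 and 2 without resistant 0 h replicate 3. It became 0 without resistant 0 h replicate 1 or 2, resistant 4 h replicate 2 or 3, susceptible 0 h replicate 3 or susceptible 4 h replicate 1. The 2 at 8 h became 5 without susceptible 8 h replicate 2, 1 without resistant 0 h replicate 3 or susceptible 0 h replicate 2, and 0 without resistant 0 h replicate 1 or 2, any resistant 8 h library or susceptible 8 h replicate 1. The 4 at 12 h became 2 without resistant 0 h replicate 1 or 2, any resistant 12 h library or susceptible 12 h replicate 1. The 0 at 24 h became 1 without susceptible 0 h replicate 1 or susceptible 24 h replicate 1 or 3.

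The members behind the single-time calls were named because these counts are small, after their values were seen. The line difference of Sme2.5_01226.1_g00003 grew at 12 and 48 h. Its resistant libraries went from 241, 259 and 246 CPM at 0 h to 289, 323 and 293 CPM at 48 h, while its susceptible libraries went from 31.5, 36.1 and 54.2 CPM to 8.82, 11.7 and 6.97 CPM. The interaction was 2.43 ± 0.36 at 48 h (log2, SE; edgeR adjusted p = 1.5e-03) and 1.78 ± 0.35 at 12 h (edgeR adjusted p = 8.5e-03). Each susceptible 48 h library lay below, and each resistant 48 h library above, all 0 h libraries of its line.

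Sme2.5_00281.1_g00012, the steadiest member over the resistant libraries, moved apart in the same way. Its resistant libraries stood at 45.1, 54.3 and 60.6 CPM (lowest, median and highest of 18). Its susceptible libraries stood at 8.89, 5.45 and 7.03 CPM at 0 h and 2.04, 2.32 and 1.72 CPM at 48 h, a fall of -1.81 ± 0.21 (log2, SE; edgeR adjusted p = 4.4e-06). The interaction at 48 h was 1.78 ± 0.28 (log2, SE; edgeR adjusted p = 2.3e-03). The susceptible 48 h libraries lay below every other susceptible library of this member.

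For a pair of members the resistant libraries stood higher at 48 h. Sme2.5_00234.1_g00004 stood at 217, 271 and 172 CPM at 0 h and 442, 678 and 462 CPM at 48 h in the resistant line, and at 47.4, 42 and 73.1 CPM and 35.3, 35.0 and 36.9 CPM in the susceptible line. Its interaction at 48 h was 1.87 ± 0.31 (log2, SE; edgeR adjusted p = 2.7e-03). Sme2.5_00785.1_g00003 went from 96.2, 81.9 and 115 CPM to 255, 405 and 165 CPM in the resistant line and from 10.7, 10.5 and 11.3 CPM to 9.42, 10.8 and 7.76 CPM in the susceptible line (interaction 1.72 ± 0.32 log2, SE; edgeR adjusted p = 9.4e-03). Both members were called at 48 h, and resistant replicate 3 of that time was within the range of replicates 1 and 2 for the first and below both for the second.

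The difference shrank in 2 of the members called at a single time. Sme2.5_01484.1_g00001 was called at 8 h and at 48 h. Its resistant libraries stood at 101, 92.2 and 59.2 CPM at 0 h and 73.5, 74.5 and 89.0 CPM at 48 h, and its susceptible libraries went from 2.24, 9.97 and 2.16 CPM to 35.0, 15.7 and 32.0 CPM. The interaction was -2.61 ± 0.56 at 48 h (log2, SE; edgeR adjusted p = 2.6e-02) and -2.17 ± 0.56 at 8 h (edgeR adjusted p = 4.8e-02). Sme2.5_24138.1_g00001 shrank at 12 h, where its susceptible libraries stood at 25.2, 17.9 and 21.5 CPM against 5.14, 3.42 and 6.30 CPM at 0 h (interaction -1.75 ± 0.35 log2, SE; edgeR adjusted p = 9.3e-03). Its resistant libraries stood at 65.8, 40.6 and 53.2 CPM and then 63.7, 66.1 and 71.5 CPM.

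The remaining single-time calls lay close to the threshold. Sme2.5_00776.1_g00003 at 4 h (1.92 ± 0.42 log2, SE) had an edgeR adjusted p of 4.7e-02, and Sme2.5_01095.1_g00011 at 8 h (1.38 ± 0.35 log2, SE) one of 4.6e-02. Sme2.5_03587.1_g00005 (1.10 ± 0.29 log2, SE) and Sme2.5_00374.1_g00003 (3.19 ± 0.84 log2, SE) at 12 h both had an edgeR adjusted p of 4.8e-02. In each of these 4 the line difference grew. Sme2.5_01095.1_g00011 and Sme2.5_03587.1_g00005 did not pass the F-test over the time course (edgeR adjusted p = 6.0e-02 and 5.7e-02).

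Among the 32 members past the time course test, the largest fitted shifts of the line difference each way, 1 time per member, belonged to members that were nearly absent from many susceptible libraries. They were 7.91 ± 2.27 for Sme2.5_04430.1_g00002 at 8 h, 5.67 ± 5.88 for Sme2.5_03245.1_g00008 at 12 h, -9.64 ± 2.42 for the same ID at 4 h and -6.15 ± 1.91 for Sme2.5_02064.1_g00003 at 12 h (log2, SE). None of the 4 passed at its own time (edgeR adjusted p 8.1e-02 to 0.69), and their sizes depend on the prior count. Sme2.5_04430.1_g00002 stood at 14.6, 11.7 and 13.4 CPM in the resistant 8 h libraries and at a deposited value of 1 in each susceptible 8 h library. Its susceptible 0 h libraries were at 7.75, 3.19 and 0.0245 CPM, so the low level at 8 h was already present in 1 of 3 at 0 h.

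The gene numbers in the IDs give a rough position, since each ID names a scaffold of the reference and a number on it. No genome was used here, so neighbours are IDs with consecutive numbers. The 150 members lay on 146 scaffolds, and 4 scaffolds held 2 members each. The pairs were genes 2 and 4 of scaffold 00234, genes 2 and 3 of 00374, genes 12 and 14 of 03126 and genes 5 and 7 of 03504. Only the pair on 00374 had consecutive numbers. Scaffolds of members held a median of 8 IDs, against 9 for all genes at the minimum level, and 18 members (12%, against 6.17%) were alone on their scaffold.

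The adjacent members did not follow the same course. Sme2.5_00374.1_g00002 stood at 125, 56.4 and 97.7 CPM at 0 h and 54.5, 35.5 and 52.9 CPM at 48 h in the resistant line, which did not pass (edgeR adjusted p = 0.19). Sme2.5_00374.1_g00003 stood at 25.5, 10.3 and 24.9 CPM and then 69.5, 76.5 and 36.2 CPM, a rise of 1.61 ± 0.58 (log2, SE; edgeR adjusted p = 4.4e-02). In the susceptible libraries both fell at 8 h, with -1.88 ± 0.53 (log2, SE; edgeR adjusted p = 1.7e-02) for the first and -2.10 ± 0.60 (edgeR adjusted p = 2.0e-02) for the second.

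The pair on scaffold 03504 differed in level and course. Sme2.5_03504.1_g00007 stood at 80.1, 122 and 193 CPM (lowest, median and highest) in the resistant and at 6.04, 13.9 and 23.7 CPM in the susceptible line. It fell in the susceptible line at 8 h, from 14.2, 13.0 and 18.9 CPM to 6.44, 6.84 and 6.04 CPM (-1.27 ± 0.24 log2, SE; edgeR adjusted p = 6.7e-04), and its time course differed between lines (edgeR adjusted p = 9.7e-03). Sme2.5_03504.1_g00005 stood at 4.84, 7.87 and 12.4 CPM and at 1.45, 2.36 and 3.11 CPM and passed at no later time in either line.

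Genes next to members had a median line difference like that of all genes. Their shares beyond 1 log2 differed, in small counts, with fewer on the resistant and more on the susceptible side. Of 217 adjacent IDs that were not members, 105 reached the minimum level in both lines. Their line difference had a median of 0.018 (log2), against 0.036 for all genes at the minimum level, and 52.4% were higher in the resistant line, against 53.0%. By the rule, an adjacent gene far enough above the susceptible line would itself be a member. Members were left out of the adjacent genes but not out of the background, which lowers the adjacent share on the resistant side. Only 2 of the 105, Sme2.5_06406.1_g00004 and Sme2.5_24183.1_g00001, were more than 1 log2 higher in the resistant line (1.90%, against 5.07%). Another 10 were more than 1 log2 higher in the susceptible line (9.52%, against 6.46%). The lowest of these, Sme2.5_11618.1_g00003 at -3.50, stood at 9.34 CPM in the resistant and 72.5 CPM in the susceptible line, next to a member that was under 1 CPM in 13 of the 18 susceptible libraries. Next to Sme2.5_00057.1_g00034, a member on and off in both lines, Sme2.5_00057.1_g00033 stood at 5.31 and 47.2 CPM. These adjacent genes were picked out after their values were seen.

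**Figure D5:**
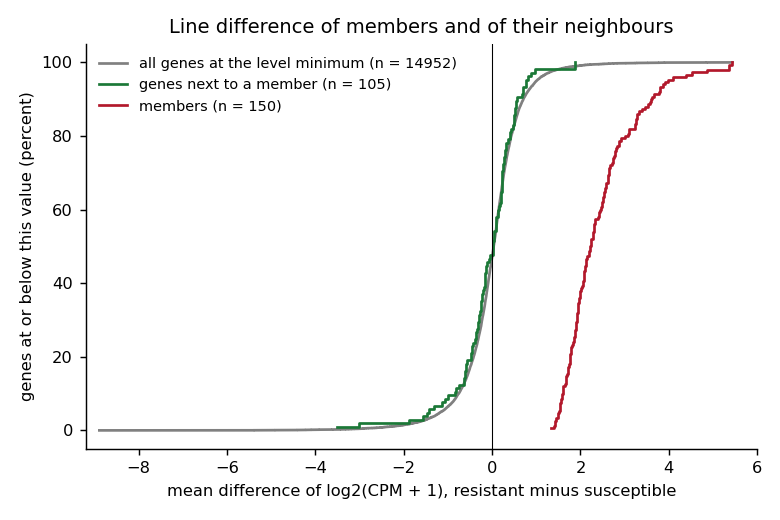
Share of genes (percent, vertical) at or below a given mean line difference of log2(CPM + 1), resistant minus susceptible (horizontal). The red curve is the 150 members, the green curve the 105 genes next to a member, and the grey curve all 14952 genes at the minimum level. The green curve runs along the grey one around a median near 0 (0.018 and 0.036), while the red curve starts at 1.34 because the rule chose it.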

How the data were processed

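RNA of 36 leaf libraries was analysed from tables the authors deposited. The deposited gene-level whole numbers were taken for estimated counts (expected counts). No source states how they were made, and they look rounded up when set against the deposited FPKM: for 10306 IDs, 92.3% of deposited values from 1 to 5 exceeded their estimate by 0 to 1 (tolerance 0.05). The authors' FPKM table held the first 65535 of 89388 rows, so 23853 rows had none. The submitters' processing notes name FastQC and HTSeq 0.6.1, and the aligner and genome build are not given in the sources used here. The 3945 rows without an ID held 4.46 to 7.28% of counts and stayed out.

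The design assumed raw counts, and the same test was run on the deposited estimates: edgeR 4.0.16 in R 4.3.3 (quasi-likelihood F-test, TMM, filterByExpr, Benjamini-Hochberg), 1 mean per line and time. SE were derived from the F statistic. The background is the 14952 genes that averaged 2 CPM or more in each line, 14951 of them tested. Named members followed a rule of rank: the 2 highest scores, both sides of the threshold, the 2 largest rises and falls per line without overlap between the groups and with 5 CPM in the higher, the 2 largest shifts each way of the line difference, the 2 highest FPKM, shared scaffolds, and the 2 steadiest and the 2 most variable members. The members, lists and rule were chosen with earlier results of these data known. On simulated counts of 22962 genes, edgeR recovered 44% of 2-fold and 80% of 4-fold changes for resistant 4 h against 0 h, with 4 false calls, 21% and 64% for the interaction, with 4 false calls, and 16% and 60% for the F-test. The simulation gave each gene 1 mean over all libraries, apart from the changes put in, and so no difference between lines. These rates need not hold for the members, which were lower in the susceptible line. Alternatives were DESeq2 1.42.0, its size factors, no normalization, no filter, only the groups compared, a replicate block and each library left out. P-values set a difference of group means against the spread between libraries within groups. That spread was estimated per gene over all groups, with information from the other genes. How many plants it covers is not known.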

Additional observations from a re-analysis of the deposited data

Results flagged for a closer look

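The time course differed between lines for 32 members by the F-test over 5 interactions. The largest fitted interactions at 1 time belonged to 3 of them, and none passed at that time (edgeR adjusted p 8.1e-02 to 0.69). Sme2.5_04430.1_g00002 had a fitted interaction of 7.91 ± 2.27 (log2, SE) at 8 h, and its time course test was lost without resistant 8 h replicate 3 or any susceptible 8 h library (edgeR adjusted p 5.1e-02 to 7.8e-02). Sme2.5_03245.1_g00008 had 5.67 ± 5.88 at 12 h, where its susceptible libraries had no count at 12 h and at most 0.147 CPM at 0 h, and -9.64 ± 2.42 at 4 h, where 1 of 3 susceptible libraries stood at 178 CPM. Sme2.5_02064.1_g00003 had -6.15 ± 1.91 at 12 h, where 1 of 3 susceptible libraries stood at 73.2 CPM.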

How the results depend on the processing

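For named members, 63 values under settings with all libraries kept direction and call and 3 lost the call. With 1 library left out 77 kept both, 18 lost the call and 1 turned. That 1 is the shift of Sme2.5_03245.1_g00008 at 4 h, which ran from -13.67 to 4.46 (log2) and turned without susceptible 4 h replicate 1, the library at 178 CPM. For shifts of the line difference the call judged here was the time course test, since none passed at its own time. A kept value could still move far in size. The shift of Sme2.5_02064.1_g00003 at 12 h ran from -6.94 to -0.83 (log2) with 1 library left out. Of the counts over members under other settings, 72 were within 1.5 times the value reported and 29 were not. Fits of only the groups compared gave 7 members at 4 h and 7 at 24 h in the resistant line, 6, 9, 17, 4 and 13 in the susceptible line from 4 to 48 h, and 0, 0 and 3 interactions at 4, 8 and 48 h. DESeq2 gave 34 members at 4 h in the susceptible line, 10, 15, 20, 5 and 18 interactions from 4 to 48 h and 59 over the time course. No filter on low counts gave 7 members at 24 h in the resistant line and 0, 0 and 2 interactions at 4, 8 and 12 h, no normalization 2, 1 and 2, and the size factors of DESeq2 1 at 8 h. With a minimum of 5 CPM in place of 2, 94 of the 150 members stayed, with the mean of the 6 differences 106, with a pseudocount of 0.1 140, and with TMM after the filter, an alternative chosen after seeing the data, 148. With 1 library left out, 139 to 147 stayed. Leaving out 1 library gave 7 to 23, 7 to 14, 16 to 23, 5 to 9 and 18 to 28 members in the resistant line from 4 to 48 h, 12 to 20, 28 to 38, 24 to 36, 13 to 23 and 16 to 23 in the susceptible line, 0 to 7, 0 to 5, 2 to 5, 0 to 1 and 4 to 6 interactions, and 19 to 42 over the time course. The replicate block gave 0, 1, 8, 0 and 5 interactions from 4 to 48 h and 32 over the time course. Apart from DESeq2 interactions at 24 h, member counts in other fits are given without the share of all genes in the same fit. They show how the counts moved and not whether members differed from the background. Same-numbered deviations correlated at -0.25 to 0.36 over 16 pairs of groups, none with every r over 0.1, and 12 of 36 libraries correlated best with their own number. These correlations showed no clear pairing by replicate number, and with 3 libraries per group they cannot exclude it. The cause of these shifts was not tested. Depth limits folds of members at or near 1 deposited count in a group.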
